A study of Mus musculus with 6 samples.

Results

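Voltage-gated sodium channels carry the inward current that starts and propagates the action potential. Each channel has a pore-forming alpha subunit, which holds the voltage sensors and the inactivation gate, and beta subunits, single-pass membrane proteins that alter gating and anchor the channel to the cell surface. In myelinated axons such as those of the auditory nerve the channels are concentrated at the axon initial segment and the nodes of Ranvier. The genes described here are 7 subunit genes chosen by symbol, of 17666 genes in the table. Scn1a, Scn8a and Scn9a encode the neuronal alpha subunits Nav1.1, Nav1.6 and Nav1.7. Scn7a encodes the atypical alpha subunit Nax, known from glia and other cells that respond to sodium. Scn2b, Scn3b and Scn4b encode beta subunits.

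Transcripts were measured by RNA sequencing in auditory nerves microdissected from the cochleas of young adult mice aged 1.5 to 2.5 months, and each sample pools both cochleas of a single mouse (2 cochleas). There were 3 wildtype mice, described as C57, and 3 mice with a knockout of complement factor B (FactorB KO) described as C57 too. The sources used here do not give the sex, the design of the knockout allele or whether the animals were littermates. The comparison asks how the nerve of the knockout differs from wildtype. Values are normalized counts, gene counts that the authors scaled per sample and rounded. They sum to 38675077 to 41496282 per library, and the sequencing depth behind them is unknown.

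Cfb, the gene of factor B, was listed at 55, 39 and 116 under the wildtype label and at 336, 351 and 376 under the knockout label. RNA of the targeted gene was thus higher under the knockout label (log2 difference 2.47, adjusted p = 0.107 by limma). Whether the labels are exchanged or the knockout allele is still transcribed was not tested. Every direction below is between libraries as labelled. Wildtype replicate 3 stood apart, with a sum of 477165 over 30 markers of spiral ganglion neurons, the cells whose axons form the nerve, against 675165 to 839404 in the other 5 libraries. All 30 neuronal markers were detected in the table. Wildtype replicate 3 also had the highest sums of red cell markers (33095, against 2698 to 11036 in the others) and of neutrophil and marrow markers (2308, against 24 to 982). The same held for satellite and nonmyelinating glia markers (291446, against 170571 to 200357). Its sum of myelinating Schwann cell markers, 629804, was the lowest under the wildtype label. In bulk tissue, fewer cells of a type and less RNA per cell cannot be told apart. Long transcripts also lay higher in the libraries labelled knockout. The median log2 difference was -0.40 for 632 genes with transcripts up to 1 kb and 0.48 for 842 genes over 8 kb. The smallest p that an exact permutation test of 3 against 3 samples can give is 0.1.

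The alpha subunit genes are close relatives, which bears on how reads of the family can be assigned. Over whole transcripts, 5.41% of the stretches of 50 bases in Scn1a and 5.36% of those in Scn9a also occur in another sodium channel transcript. The share was 0.0527% in Scn8a, and no stretch of Scn7a, Scn2b, Scn3b or Scn4b was shared (0 of 7289, 4607, 4101 and 4933 stretches). The shares were larger still in 2 relatives used below, 7.58% in Scn2a and 8.05% in Scn3a. Values of Scn1a, Scn9a, Scn2a and Scn3a are therefore uncertain where reads could be divided between relatives.

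The genes lie on 3 chromosomes (mm10, GENCODE M21). Scn1a (chr2:66270778-66440840), Scn9a (chr2:66480080-66634962) and Scn7a (chr2:66673425-66784914) follow each other on the minus strand of chromosome 2, with transcripts of 8.386, 9.84 and 7.338 kb. Scn8a (chr15:100869858-101045938, plus strand) has the longest transcript, 11.436 kb in 27 exons. Scn3b (chr9:40269217-40291618), Scn2b (chr9:45117782-45130070) and Scn4b (chr9:45138395-45154152) lie on the plus strand of chromosome 9, the last 2 next to each other, with transcripts of 4.15, 4.656 and 4.982 kb.

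No subunit gene passed the test between labels. Limma on log2(value + 1) called 0 of the 7 at an adjusted p of 0.05, where it called 0.158% of all genes, and 1 of the 7, Scn8a, had an unadjusted p under 0.05, against 20% of all genes. The authors' deposited table called 0 of the 7, against 7.39% of the genes with a rate there. For none of the 7 were the groups free of overlap, while 28.5% of all genes had groups that do not overlap. The median log2 difference of the 7 was 0.49, beside a median of 0.0060 over all genes.

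**Figure D1:**
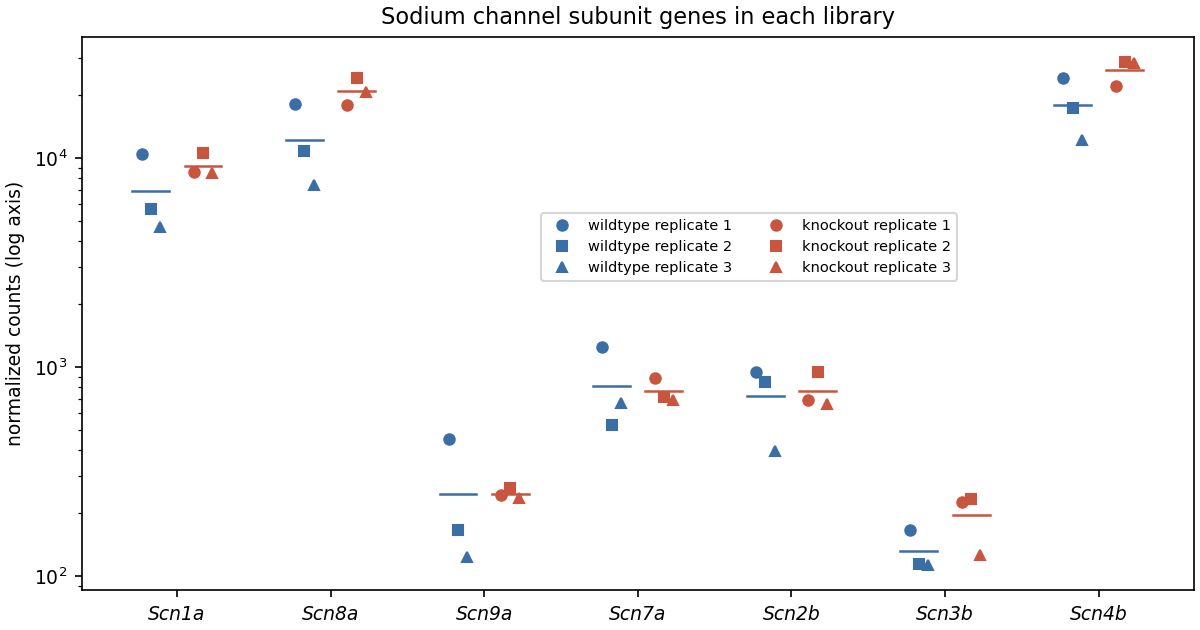
Normalized counts (log axis) of the 7 subunit genes, with 1 point per library, shape for the replicate number and a bar at the mean of each label. Wildtype replicate 1 (blue circle) is the highest wildtype library for all 7 genes, and the points of the labels overlap for each gene.

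Scn8a, the alpha subunit gene of mature nodes of Ranvier, had 18153, 10839 and 7435 normalized counts under the wildtype label and 17917, 24233 and 20827 under the knockout label. Wildtype replicate 1 lay just above the lowest knockout library, so the groups overlap, and the other 2 wildtype libraries lay below every knockout library. Scn8a averaged 12142 ± 5477 under the wildtype label and 20992 ± 3161 under the knockout label (SD, n = 3 each), which is 1.73 times the wildtype mean. The log2 difference was 0.88 with a standard error of 0.31 and an adjusted p of 0.203 by limma. Its 95% interval, 0.13 to 1.62 before adjustment for the number of genes, spans folds of 1.10 to 3.07. Of all genes, 5.94% had a difference at or above this one in the same direction. Without wildtype replicate 1 the difference was 1.21 (adjusted p = 0.0596 by limma), and without wildtype replicate 3 it was 0.57 (adjusted p = 0.163 by limma).

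Scn1a, whose product Nav1.1 is found in fast-firing neurons, had 10454, 5715 and 4678 normalized counts under the wildtype label and 8557, 10556 and 8526 under the knockout label. The highest wildtype library nearly equalled the highest knockout library, and the groups overlap. The log2 difference was 0.49 with a standard error of 0.29 (adjusted p = 0.383 by limma), and its interval, -0.19 to 1.17, spans folds of 0.875 to 2.25. It was 0.83 without wildtype replicate 1 and 0.25 without wildtype replicate 3.

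Scn9a, best known as the alpha subunit gene of pain-sensing neurons, was scarce, with 454, 166 and 123 normalized counts under the wildtype label and 244, 265 and 236 under the knockout label. All 3 knockout libraries lay within the wildtype range. The means were almost the same, 247.7 ± 180.0 and 248.3 ± 15.0 (SD, n = 3 each). The log2 difference was 0.24 with a standard error of 0.45 (adjusted p = 0.803 by limma), and it was -0.15 without wildtype replicate 3. An antisense gene, Gm13629, runs across Scn9a on the opposite strand and shares 180 exonic bases with it. Gm13629 had 1178, 790 and 607 normalized counts under the wildtype label and 1108, 1329 and 1267 under the knockout label. The sources used here do not state the strand setting of the counting, and without strand the reads of the shared bases cannot be told apart.

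Scn7a had 1243, 530 and 672 normalized counts under the wildtype label and 889, 716 and 696 under the knockout label. As with Scn9a, the knockout libraries lay within the wildtype range. Its log2 difference was 0.00023 with a standard error of 0.31 (adjusted p = 1 by limma). The interval of -0.72 to 0.72 still allows folds from 0.606 to 1.65, so the data do not show that the level was the same.

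Scn4b was the most abundant of the 3 beta subunit genes chosen. Its product has a cytoplasmic tail that can enter the open pore and is known for resurgent current in fast-firing neurons. Scn4b had 24298, 17433 and 12218 normalized counts under the wildtype label and 22188, 28858 and 28466 under the knockout label. As for Scn8a, wildtype replicate 1 alone reached the knockout range. Scn4b averaged 17983 ± 6059 and 26504 ± 3743 (SD, n = 3 per label), and the log2 difference of 0.61 with a standard error of 0.26 did not pass (adjusted p = 0.256 by limma). Its interval was -0.0093 to 1.22, and it was 0.85 without wildtype replicate 1 and 0.35 without wildtype replicate 3.

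Scn2b, whose product is joined to the alpha subunit by a disulfide bond, as is that of Scn4b, had 949, 850 and 395 normalized counts under the wildtype label and 693, 945 and 668 under the knockout label. The wildtype range enclosed all 3 knockout libraries. The log2 difference was 0.15 with a standard error of 0.34 (adjusted p = 0.833 by limma). Without wildtype replicate 3, the lowest library, it was -0.24.

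Scn3b, which encodes a beta subunit bound without a covalent link, had 167, 114 and 113 normalized counts under the wildtype label and 225, 234 and 126 under the knockout label. Knockout replicate 3 lay among the wildtype libraries and the other 2 knockout libraries above them. The log2 difference was 0.54 with a standard error of 0.30 (adjusted p = 0.361 by limma), and without knockout replicate 3 it was 0.82 (adjusted p = 0.456 by limma).

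The order of the libraries was much alike across the genes. Wildtype replicate 1 was the highest wildtype library for 7 of 7 genes and the highest of all 6 libraries for 3. Wildtype replicate 3 was the lowest of all libraries for 6 of 7, and wildtype replicate 2 for the other, Scn7a. Knockout replicate 2 was the highest knockout library for 6 of 7. The SD was 23.5% to 72.7% of the mean under the wildtype label and 6.03% to 30.7% under the knockout label, and Scn3b was the one gene with the wider relative spread under the knockout label.

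**Figure D2:**
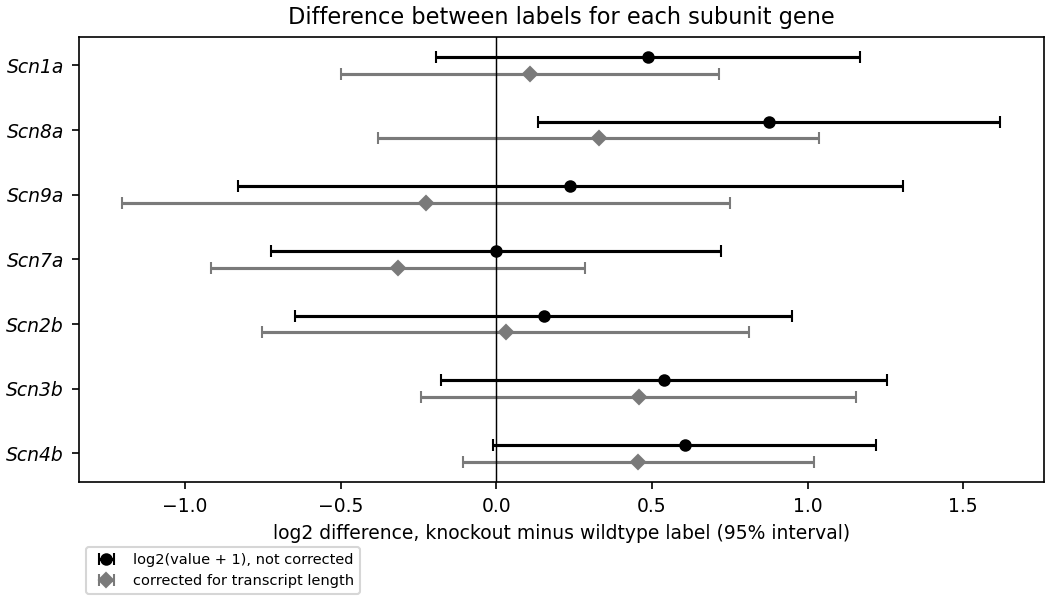
Log2 difference of each subunit gene, knockout minus wildtype label, with its 95% interval by limma, before (black circles) and after (grey diamonds) a correction for transcript length in each library. Before the correction only the interval of Scn8a, 0.13 to 1.62, leaves out 0, and after it every interval spans 0.

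Levels of different genes can be compared only per length. Per kb of transcript, Scn4b had 3610 ± 1216 normalized counts per kb under the wildtype label and 5320 ± 751 under the knockout label (SD, n = 3 each). Scn8a followed with 1062 ± 479 and 1836 ± 276, then Scn1a with 829 ± 367 and 1099 ± 139. The other 4 genes were far lower, with means per kb of 157 and 165 for Scn2b, 111 and 105 for Scn7a, 31.6 and 47.0 for Scn3b and 25.2 and 25.2 for Scn9a. Scn8a was above Scn1a per kb in 6 of 6 libraries, although their ranges overlap under the wildtype label. Scn2b was above Scn7a in 5 of 6 libraries and Scn3b above Scn9a in 5 of 6. The members of each of these last pairs overlap under the wildtype label and not under the knockout label.

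Ratios between genes within a library do not depend on how that library was scaled. Of 6 ratios compared, Scn8a to Scn1a and Scn9a to Scn8a had groups that do not overlap. Scn8a to Scn1a was 1.74, 1.90 and 1.59 under the wildtype label and 2.09, 2.30 and 2.44 under the knockout label, higher in each of the latter. On the log2 scale it averaged 0.80 ± 0.13 and 1.18 ± 0.11 (SD, n = 3 per label), with a difference of 0.39. The exact permutation test, two-sided, gave p = 0.1 (adjusted p = 0.3 over 6 ratios). That is the smallest p possible, so this test could not pass 0.05 for any ratio. The ratio of Scn8a to other genes was free of overlap for 48.4% of 13375 genes (48.1% with Scn8a higher), and the ratio of Scn1a for 8.08% (6.80% with Scn1a higher). The count of 2 of 6 is to be read against those shares. Scn9a to Scn8a was lower by 0.64 on the log2 scale under the knockout label (same test, exact p = 0.1, adjusted p = 0.3) and by 0.42 without wildtype replicate 1, and the other 4 ratios overlapped, with exact adjusted p of 0.4 to 0.9.

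As a share of the per-length levels of the 5 neuronal alpha subunit genes Scn1a, Scn2a, Scn3a, Scn8a and Scn9a, Scn8a made up 52.2%, 54.1% and 49.6% under the wildtype label and 56.6%, 59.3% and 60.5% under the knockout label. Scn1a made up 41.0%, 38.9% and 42.5% and then 36.9%, 35.2% and 33.8%. These shares restate the ratio of Scn8a to Scn1a and are given without a test. Scn2a, Scn3a and Scn9a together never held more than a small part, with means of 4.81%, 1.23% and 1.15% under the wildtype label.

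**Figure D3:**
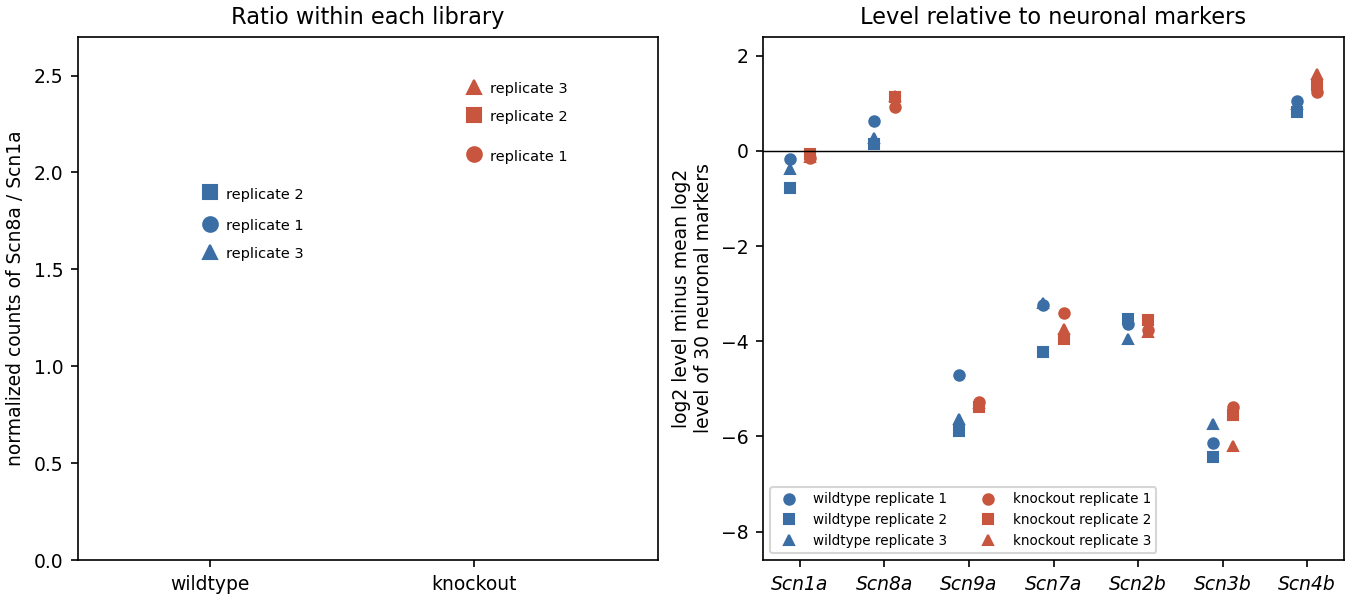
Left, normalized counts of Scn8a divided by those of Scn1a in each library, 1.59 to 1.90 under the wildtype label and 2.09 to 2.44 under the knockout label. Right, log2 level of each subunit gene minus the mean log2 level of 30 neuronal markers in the same library, where the labels do not overlap for Scn1a, Scn8a and Scn4b.

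Set against the mean log2 level of the 30 neuronal markers in the same library, Scn8a lay at 0.62, 0.14 and 0.28 under the wildtype label and at 0.93, 1.13 and 1.16 under the knockout label. The difference was 0.73 on the log2 scale, and the groups do not overlap. Scn4b differed by 0.46, from 0.95 ± 0.12 to 1.41 ± 0.19, and Scn1a by 0.34, from -0.45 ± 0.31 to -0.11 ± 0.04 (SD, n = 3 each), again without overlap. The groups of Scn1a lay close, with wildtype replicate 1 at -0.18 and knockout replicate 1 at -0.14. Without wildtype replicate 2 the difference of Scn1a was 0.17, and against the median of the markers it was 0.35 (exact permutation p = 0.4). Each of the 3 had an exact permutation p of 0.1, the smallest possible, and an adjusted p of 0.233 over the 7 genes, so none passed. The other 4 genes overlapped, among them Scn2b with a difference of 0.0026. The count of 3 of 7 without overlap compares with 8.88% of 13376 genes set against the same markers. Those markers have a median transcript length of 3.18 kb, shorter than any of the 7.

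Transcript length moved with these differences. Among genes with a mean of at least 50, those over 8 kb had a median log2 difference of 0.48, and Scn1a (0.49), Scn8a (0.88) and Scn9a (0.24) fall in that class. Genes of that class lay lowest in wildtype replicate 2, with a median of -0.54 against their mean over the 6 libraries, beside -0.028 and -0.13 in wildtype replicates 1 and 3 and 0.22 to 0.27 under the knockout label. For genes of 6 to 8 kb, the class of Scn7a, the median was 0.29, and for genes of 4 to 6 kb, that of the 3 beta subunit genes, it was 0.13. Scn3b and Scn4b thus lay above the median of their class and Scn2b (0.15) near it. After a correction for the trend on length in each library, Scn8a had a log2 difference of 0.33 (interval -0.38 to 1.04, adjusted p = 0.642 by limma) and Scn1a of 0.11 (adjusted p = 0.872 by limma). Scn4b and Scn3b moved less, to 0.46 (adjusted p = 0.418 by limma) and 0.46 (adjusted p = 0.501 by limma). Scn9a and Scn7a then had differences of -0.22 and -0.32. With the same correction the ratio of Scn8a to Scn1a differed by 0.22 and overlapped, since wildtype replicate 2 reached the knockout range (exact permutation p = 0.3). The ratio of Scn9a to Scn8a then differed by -0.55 and still had no overlap (exact permutation p = 0.1). Its groups lay close, with wildtype replicate 2 at -6.11 and knockout replicate 1 at -6.15 on the log2 scale. The share of corrected ratios free of overlap over all genes was not computed. Set against the neuronal markers, Scn8a then differed by 0.20, Scn1a by -0.024 and Scn4b by 0.32, and Scn4b alone was free of overlap, 1 of 7 beside 6.68% of 13319 genes.

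**Figure D4:**
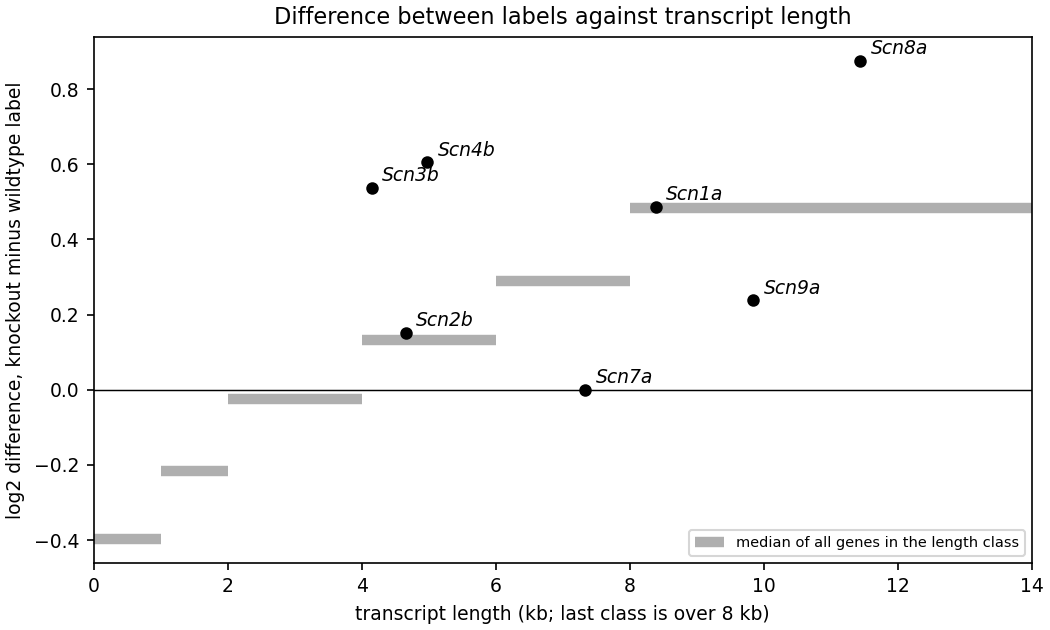
Log2 difference of the 7 subunit genes (points), knockout minus wildtype label, against the length of their longest coding transcript, with the median of all genes of a mean of at least 50 in each length class (grey bars, the last for all transcripts over 8 kb). The medians run from -0.40 to 0.48. Scn1a and Scn2b lie near the bar of their class, Scn8a, Scn4b and Scn3b lie above theirs, and Scn9a and Scn7a lie below theirs.

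Other sodium channel genes were read from 7 symbols, of which the table held 6. Limma called 0 of these 6, and Scn2a alone (1 of 6) was under 0.05 without adjustment, beside 20% of all genes. The authors' deposited table called none of Scn2a, Scn3a and Nalcn. It gave no rate for Scn4a, Scn10a and Scn11a, so these could not be called there. Scn2a, the alpha subunit gene of unmyelinated and immature axons, had 1101, 782 and 630 normalized counts under the wildtype label and 1118, 1216 and 1144 under the knockout label. Its groups are close at 1101 and 1118 but do not overlap, and the log2 difference of 0.51 with a standard error of 0.20 did not pass (adjusted p = 0.235 by limma). After the correction for length it was 0.096, and without wildtype replicate 3 it was 0.32. Scn3a, an alpha subunit gene of the embryonic nervous system, had 334, 167 and 192 against 301, 294 and 188, with a log2 difference of 0.21. Nalcn, which encodes a sodium leak channel, had 2749, 2008 and 3324 against 3506, 3286 and 3090, with a log2 difference of 0.32 (adjusted p = 0.377 by limma), which was 0.015 after the correction for length, 0.12 without wildtype replicate 2 and 0.49 without wildtype replicate 3. Scn4a, Scn10a and Scn11a, the alpha subunit genes of skeletal muscle and of pain-sensing neurons, had 1 to 8 in each library.

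Among 20 genes whose products bind or regulate sodium channels, limma called 0, 11 had a difference above 0 and the median was 0.023. Of the 20, 5 were under 0.05 without adjustment, near the 20% of all genes. The authors' deposited table called S100a10 alone of the 20, with a signed fold of -1.37, that is lower under the knockout label. A single call among 20 genes is no more than the 7.39% of all genes called there. The S100a10 product helps bring a sodium channel of sensory neurons to the membrane. S100a10 had 2648, 3362 and 2770 normalized counts under the wildtype label and 2253, 2075 and 2095 under the knockout label. Of 21 genes of node and paranode assembly, the structures that hold the channels in place, limma called 0, and 10 were under 0.05 without adjustment, beside 20% of all genes. Ank3, Sptbn4 and Cntn1 are on both lists. All 21 had a difference above 0, where 50.7% of all genes did, and the median was 0.54, in a list whose median transcript length was 8.21 kb. The authors' deposited table called Tnr, which encodes an extracellular matrix protein of nodes, and Ank2, which encodes an ankyrin of the paranode region, 3.47-fold and 1.92-fold higher, which is 2 of the 21 beside 7.39% of all genes.

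Marker lists of the cells in the tissue differed in direction. They also differed in median transcript length, with 3.18 kb for neurons, 2.61 kb for myelinating Schwann cells and 2.72 kb for satellite and nonmyelinating glia. For hair cells and the organ of Corti it was 7.04 kb. The 30 neuronal markers had a median log2 difference of 0.11, and 17 of them were above 0. Their summed level was 477165 to 839404 under the wildtype label and 675165 to 817357 under the knockout label. The 14 markers of myelinating Schwann cells had a median of -0.23, with sums of 629804 to 880543 and 514455 to 603249, and the 14 of satellite and nonmyelinating glia one of 0.11, with sums of 170571 to 291446 and 177910 to 187465. The 13 markers of hair cells and the organ of Corti all had differences above 0, where 50.7% of all genes did. Their median was 1.33, with sums of 5275 to 17550 and 14753 to 31916. Their mean log2 level was 10.27, 10.20 and 9.22 in knockout replicates 1, 2 and 3, and 9.52 in wildtype replicate 3. None of these markers was listed at 0 in all libraries. The part of these cell types in the values of the subunit genes was not tested, beyond the values set against the neuronal markers above.

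The genes whose pattern was most like that of each subunit gene were taken from 13369 other genes with a mean of at least 100, by Pearson's r of log2(value + 1) over the 6 libraries. With so few points and so many genes high values come easily: 486 genes had an r over 0.95 with Scn8a, 440 with Scn4b and 5 with Scn7a. Scn8a was closest to Rgmb (r = 0.9996) and Stox2 (r = 0.9996), and Scn1a to Ehd1 (r = 0.9995) and Sfmbt2 (r = 0.998). Pearson's r takes no account of the size of a change. Ehd1 ran only from 1665 to 1849 normalized counts over the libraries, and Scn1a from 4678 to 10556. Scn4b was closest to Psd (r = 0.999) and to Sptbn4 (r = 0.998), which encodes a spectrin of nodes and initial segments. Sptbn4 had 6768, 4572 and 2931 normalized counts under the wildtype label and 6372, 8158 and 8331 under the knockout label. Scn2b was closest to Reep1 and Ypel4 (r = 0.997 and 0.996), Scn3b to Bbs7 and Pcdh17 (r = 0.985 and 0.982), and Scn9a to Nek1 and Kcnj9 (r = 0.996 and 0.987). Scn7a had the weakest best match, Mid2 (r = 0.969), followed by 5530601H04Rik (r = 0.960). The mean profile of the 7 genes was most like Sema5b, Rgl1, Onecut2, Rasgrf1 and Nid2 (r = 0.995 to 0.997).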

How the data were processed

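The authors' deposited table holds 1 row per gene and 1 value per sample, a score: gene counts scaled per sample and rounded, called normalized counts. This reading comes from the values. The columns' median-of-ratios factors ran from 1.0038 to 1.0068. The authors' deposited fold change was within 1% of the ratio of means in 99.8% of the 13938 genes whose group means both exceed 50. The table also holds the authors' false discovery rate, with none for 2061 genes. Low whole values that no gene had numbered 2, 3 and 1 in the knockout columns and 0 in each wildtype column; whether depth differs between labels was not tested. The submitters' processing notes name TopHat2, DESeq2, Partek and the build mm10. The library kit was Illumina TruSeq RNA, per the labels' protocols. Versions, annotation and strand setting are not given in the sources used here. Unscaled counts were not used here, so no count test was run. There were 0 sample columns left unused.

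Limma 3.58.1 in R 4.3.3 fitted label to log2(value + 1) over 17666 genes (mean of at least 1, which removed 0 genes), using eBayes moderation with a mean-dependent trend and Benjamini-Hochberg adjustment at 0.05. Differences on this scale understate changes of low genes. Ratios within libraries were tested with exact permutation tests, two-sided. Lengths are those of the longest coding transcript in GENCODE M21 and matched 98.9% of genes; the correction subtracts a lowess trend of each library on log2 length. The fit was tested on simulated data for 17666 genes. Noise was drawn independently for each gene, with the observed spread of a gene of like mean, pooled over both labels. The fit made 132 calls, of which 9 were false. It found 46 of the 100 genes simulated with a 2-fold change and 77 of the 100 with a 4-fold change. The real libraries deviated together across many genes and varied more under the wildtype label, so these counts need not hold for them. Replicate pairs differed by a chi-square per gene of 23.7 or more, so the 6 libraries were counted as separate; each is 1 mouse.

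The members and lists were chosen with earlier results of these data known. The text names the 7 members, other sodium channel genes (some of the listed ones are not reported here), Cfb, up to 4 called genes of the partner and node lists, and the closest patterns (2 per member, 5 for their mean). Gm13629 and the values of Sptbn4 and Ehd1 were added after they were seen. Marker lists of central glia, central neurons, muscle, red cells, marrow, macrophages, fibroblasts, bone and endothelium were read too, with median log2 differences of 0.26, 1.03, -1.00, -2.44, -2.89, 0.0078, 0.072, 0.15 and 0.41.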

Additional observations from a re-analysis of the deposited data

How the results depend on the processing

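The 7 subunit genes were not called under any of 17 alternatives: pseudocounts of 0.5 and 10, a mean of at least 50, no filter, equal column totals, quantile normalization, no trend on the mean, sample weights, the replicate block, the length correction, each library left out, and the authors' deposited table. The filter removed 0 genes, so the fit with no filter repeats the main fit. With a knockout library left out limma called no gene of the whole table, so those fits say little about the 7. Scn8a, Scn1a, Scn4b, Scn3b, Scn2a, Nalcn and Gm13629 kept their direction in all 17, with log2 differences of 0.33 to 1.21 for Scn8a, 0.11 to 0.83 for Scn1a, 0.35 to 0.85 for Scn4b and 0.38 to 0.82 for Scn3b outside the authors' table. Over all genes, where limma called 28, it called 16 without a trend, 111 with sample weights, 7 with the replicate block and 0 to 419 when 1 library was left out (87, 1 and 419 without wildtype replicate 1, 2 and 3, and 0 without knockout replicate 1, 2 or 3, where 2222, 1797 and 1891 genes were under 0.05 without adjustment). The count in the authors' deposited table was 1153. The deviations of same-numbered libraries from their group means had correlations of -0.065, 0.10 and 0.25, so the numbers were not taken as pairs, and with the block Scn8a had a log2 difference of 0.88 (adjusted p = 0.289 by limma).

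The direction reversed for these values. Scn7a, at 0.00023, was -0.00070 with a pseudocount of 10, -0.0095 with equal totals, -0.0031 with quantile normalization, -0.10 with sample weights, -0.32 after the length correction, -0.084 in the authors' deposited table, and -0.26 to 0.35 over the left-out libraries. Scn9a was -0.051 with sample weights, -0.22 after the length correction and -0.15 to 0.79 over the left-out libraries. Scn2b was -0.090 with sample weights and -0.24 to 0.39 over the left-out libraries, and Scn3a was -0.24 after the length correction. Against the neuronal markers, after the length correction, which was added for these and the ratios after seeing the data, Scn1a was -0.024, Scn9a -0.36 and Scn2b -0.10, and Scn2b was -0.00093 with a pseudocount of 10. Over the left-out libraries, against the markers, the lowest and highest were -0.15 and 0.44 for Scn9a, -0.48 and 0.033 for Scn7a and -0.12 and 0.089 for Scn2b. The ratio of Scn3b to Scn4b was 0.0015 after the length correction and -0.32 to 0.28 over the left-out libraries. The cause of these changes was not tested. The sequencing depth of each library is unknown, so the part of counting error in the spread cannot be given.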
